A study of Mus musculus with 8 samples.

Results

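The interferon regulatory factor (IRF) family was followed through the leukocytes of mouse liver metastases, by leukocyte class and by Tet2 genotype. Its members here are Irf1, Irf2, Irf3, Irf4, Irf5, Irf7, Irf8 and Irf9, 8 of the 33696 genes in the deposited matrices, each with a single row. They were taken by gene name, with values of these libraries already known, and no expression threshold decided membership. The KO group was 2 Vav1CreTet2KO mice, in which a Cre recombinase driven by the Vav1 promoter, active across blood lineages, acts on Tet2, a dioxygenase that oxidises methylated cytosine. The control group was 2 Tet2fl/fl mice, which carry floxed Tet2 and for which no Cre is named. All 4 mice bore liver tumours grown from Venus-AKTPM/LOH colorectal cancer cells injected into the spleen, and were sampled at day 30. Live cells stained for CD45.2 were sorted, so the data hold leukocytes by selection, and each mouse gave a 5' gene expression library and a T cell receptor library. Age and sex are not given in the labels.

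IRFs are transcription factors with a shared DNA-binding domain that recognises GAAA repeats. IRF3 is made constitutively and is switched on by phosphorylation downstream of nucleic acid sensors, while IRF7 is itself an interferon-induced gene and amplifies type I interferon production. IRF9 binds DNA in the cell's response to type I interferon. IRF1 is induced by interferon gamma, IRF2 competes with IRF1 for its sites, and IRF5 acts downstream of Toll-like receptors and MyD88 in myeloid and B cells. IRF4 and IRF8 bind with partners such as PU.1 and BATF factors: IRF4 is induced by antigen receptor signals and is needed for plasma cells, and IRF8 is needed for cDC1 and monocyte development.

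Because several IRF genes are themselves interferon targets, the 250 bases before each member's annotated start were searched on both strands for the core of the interferon-stimulated response element (ISRE; GAAA, any 2 bases, GAAA), bound by IRFs, and for the gamma-activated site (GAS, TTCNNNGAA), bound by STAT dimers. All 8 members had a window. An ISRE core was found in 1 of the 8 (Irf2) and a GAS element in 3 of the 8 (Irf1, Irf2 and Irf8), against 3.32% and 7.7% of the 21770 windows of the same length in the annotation. The windows of Irf3, Irf4, Irf5, Irf7 and Irf9 held neither set of letters. A match is a string of letters and not a measured binding site. The 4 windows below are those with a match and that of Irf7, the member with the widest genotype difference; they are read 5' to 3' on the gene's strand from GRCm39 with GENCODE vM39, and capitals mark the matches. Irf1 lies on chromosome 11, + strand, at chr11:53660591-53660840, with a GAS 90 to 82 bases before the start. Irf2 lies on chromosome 8, + strand, at chr8:47192510-47192759, with the ISRE core 221 to 212 and the GAS 204 to 196 bases before the start. Irf7 lies on chromosome 7, - strand, at chr7:140846399-140846648. Irf8 lies on chromosome 8, + strand, at chr8:121462847-121463096, with GAS elements 171 to 163 and 153 to 145 bases before the start.
Irf1: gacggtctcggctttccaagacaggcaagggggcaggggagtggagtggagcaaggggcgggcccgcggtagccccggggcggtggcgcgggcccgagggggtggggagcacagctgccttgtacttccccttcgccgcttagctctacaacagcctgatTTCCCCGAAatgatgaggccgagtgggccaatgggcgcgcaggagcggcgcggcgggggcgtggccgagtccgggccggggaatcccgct
Irf2: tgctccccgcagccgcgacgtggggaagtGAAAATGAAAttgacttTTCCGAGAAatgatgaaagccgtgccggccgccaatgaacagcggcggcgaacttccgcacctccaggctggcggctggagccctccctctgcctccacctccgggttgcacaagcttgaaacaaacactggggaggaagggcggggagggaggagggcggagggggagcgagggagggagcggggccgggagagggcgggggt
Irf7: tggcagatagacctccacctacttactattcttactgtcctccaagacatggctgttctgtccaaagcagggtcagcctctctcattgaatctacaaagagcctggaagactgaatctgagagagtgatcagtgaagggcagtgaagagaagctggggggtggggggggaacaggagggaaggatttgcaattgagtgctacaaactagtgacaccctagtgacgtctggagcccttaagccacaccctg
Irf8: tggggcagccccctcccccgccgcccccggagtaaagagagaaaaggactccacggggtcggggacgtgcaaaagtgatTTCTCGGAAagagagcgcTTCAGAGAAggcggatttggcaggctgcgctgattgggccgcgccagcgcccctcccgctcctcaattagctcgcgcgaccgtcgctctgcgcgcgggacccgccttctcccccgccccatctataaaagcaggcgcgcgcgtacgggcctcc

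The libraries held 10917 and 11743 barcodes in KO mice 1 and 2 and 12494 and 13870 in control mice 1 and 2, with 57190926, 60456627, 89945864 and 91789597 unique molecular identifiers (UMIs, counted molecules) in that order. After filters and removal of doublets 46574 cells remained. Any pair of libraries shared 272 to 303 cell barcodes, at most 2.67% of a library. Clusters were named from fixed marker genes, and 7 classes had at least 30 cells in every mouse. B-like cells were 41.0% and 43.6% of cells in KO mice, against 5.59% and 4.63% in control mice, and monocyte/macrophage-like cells 8.58% and 10.3%, against 52.8% and 51.2%. Levels are in CPM, the usual scaling of a gene's UMIs to the total of its sum, and the Tet2 values are TMM-scaled (library totals adjusted by edgeR for composition). Tet2 itself had log2 changes of -0.16 to -0.87 in the 7 classes, with overlapping genotypes in CD4 conventional T cells (22.2 and 24.98 CPM in KO mice and 41.6 and 20.2 CPM in control mice) and neutrophil-like cells (86.9 and 77.2 CPM, against 109 and 76.0 CPM). It passed the test only in monocyte/macrophage-like cells, at 45.9 and 47.4 CPM in KO mice and 68.4 and 68.1 CPM in control mice (log2 change -0.55 ± 0.108 SE, edgeR adjusted p = 0.0106). Counts from the 5' end do not show whether an exon was deleted.

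Levels of the members across leukocyte types are a description, since the types were clustered from the same cells. Each level is the CPM of UMIs summed per mouse and type, over 15 types, and levels are compared only between types for the same gene. Pairs of neighbours in a member's order whose mouse ranges overlapped are not separated by these data.

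Irf8 had the widest range among types. Plasmacytoid dendritic-like cells held 3479 and 3286 CPM in KO mice, against 3584 CPM in control mouse 2; control mouse 1 had only 2 such cells. cDC1-like cells, the cross-presenting dendritic cells, followed with 1860 and 1955 CPM in KO mice and 2026 and 1898 CPM in control mice. NK-like cells came next, with 1224 and 1219 CPM in KO mice and 1242 and 719 CPM in control mice. These 3 types were each separated from the type below, no mouse of the higher one falling into the range of the lower one. Neutrophil-like cells were lowest, with 3.33 and 3.72 CPM in KO mice and 3.04 and 4.29 CPM in control mice. Irf8 is itself among the leading genes of a cDC1-like sub-cluster, although no member was used as a variable gene in the clustering. With every cell thinned to 1000 UMIs, a mean of 93.3% of plasmacytoid dendritic-like cells and 81.2% of cDC1-like cells had an Irf8 UMI, against 0.405% of neutrophil-like cells, a lineage in which Irf8 is kept low; unthinned, the shares in the 4 mice were 98.6% to 100% of plasmacytoid dendritic-like cells at 4241 to 7275 median UMIs, and 0.524% to 1.03% of neutrophil-like cells at 1695 to 2510. cDC2-like cells, the other main conventional dendritic type, had a mean of only 83.5 CPM.

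Irf4 was highest in plasma-like cells (mean 155 CPM, range over the mice 126 to 218) and B-like cells (mean 132 CPM, range 104 to 165), which were not separated from each other. All other types lay below the range of the B-like cells. cDC2-like cells had a mean of 36.3 CPM, against 2.94 CPM in cDC1-like cells. In NK-like cells its mean was 2.48 CPM and in neutrophil-like cells 0.541 CPM; the neutrophil-like mean rests on 1 UMI in each of KO mouse 2 and control mouse 1 and none in the other mice.

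Irf5 was highest in cDC1-like cells (mean 438 CPM, range 407 to 469), apart from the next type, cDC2-like cells (366 CPM), though the highest Ly6C monocyte-like value, 409 CPM, reached into that range. The 3 monocyte and macrophage types followed at means of 337 CPM (Ly6C monocyte-like), 316 CPM (patrolling monocyte-like) and 273 CPM (macrophage-like), with overlapping ranges. CD8 T cells were lowest, at 15.9 CPM.

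Irf2 was highest in B-like cells, with a mean of 240 CPM and a range of 222 to 270, apart from all other types. Its lowest mean was in plasmacytoid dendritic-like cells, 59.8 CPM. Irf1 had its highest means in plasmacytoid dendritic-like cells (311 CPM over 3 mice, range 116 to 465) and NK-like cells (289 CPM). In plasmacytoid dendritic-like cells Irf1 was at 419 CPM over the KO cells and 120 CPM over the control cells. The lowest Irf1 mean was in plasma-like cells (56.9 CPM), and in its order only other T cells were separated from the next type. Irf7 spread so widely among mice within a type that no neighbouring types in its order were separated; macrophage-like cells (mean 328 CPM, range 47.3 to 625) and plasmacytoid dendritic-like cells (mean 320 CPM, range 127 to 483) led. Irf3 and Irf9 varied least: the ratio of the highest to the lowest type mean was 2.47 for Irf3 and 4.01 for Irf9, close to 4.02 for Irf2, against 959 for Irf8 and 287 for Irf4.

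**Figure D1:**
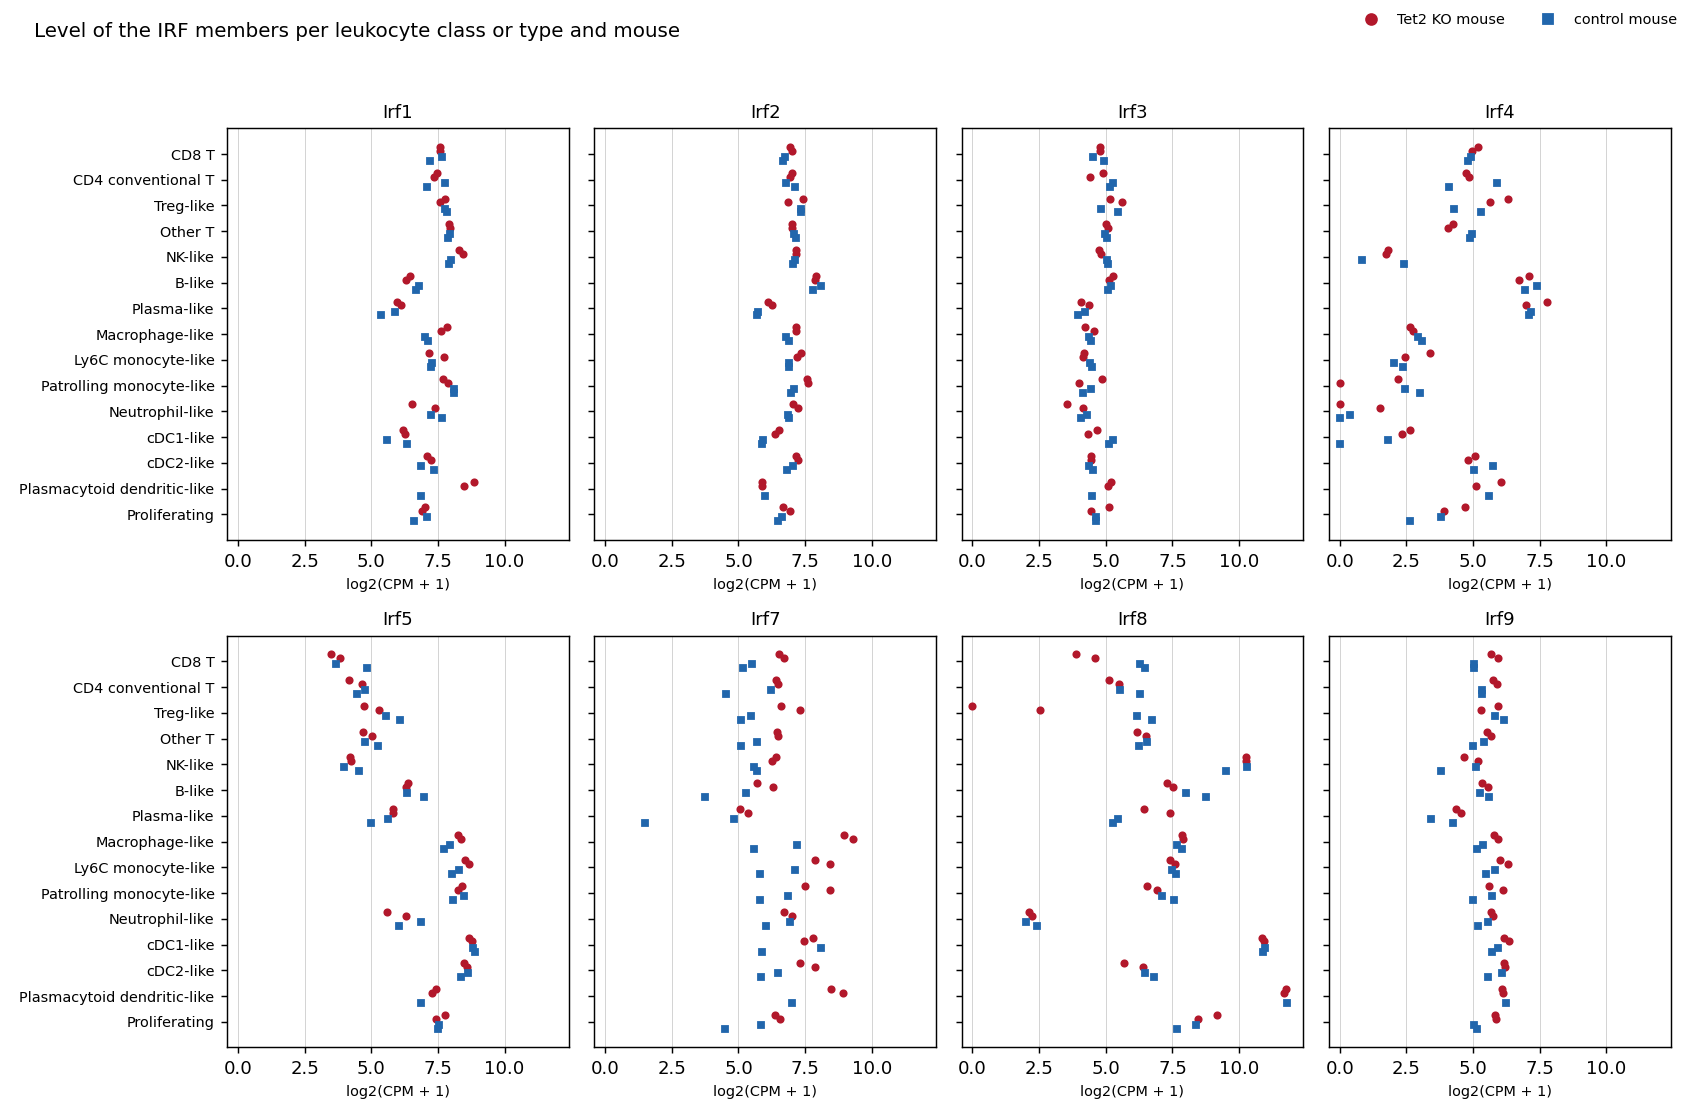
Level of each member in 15 leukocyte classes and types, as log2(CPM + 1) of UMIs summed per mouse, with a red circle for each Tet2 KO mouse above a blue square for each control mouse; groups with under 20 cells in a mouse have no point for it. The Irf8 points run from 3.04 to 4.29 CPM in neutrophil-like cells up to 3286 to 3584 CPM in plasmacytoid dendritic-like cells, while the means of Irf3 span 2.47-fold.

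Genotypes were compared within each class on UMI sums per mouse by edgeR's quasi-likelihood test with Benjamini-Hochberg adjustment over all genes of the class, and a member is called when its adjusted p is under 0.05. The values below are TMM-scaled CPM, given for mice 1 and 2 of each genotype, and changes are log2 of KO over control. Labels name the mice biological replicates, so the p-values measure the spread between these 2 mice a group. Of 56 combinations of member and class, 53 could be tested, Irf4 having too few counts in NK-like and neutrophil-like cells and Irf8 in neutrophil-like cells, and 4 were called: Irf7 and Irf8 in CD8 T cells and Irf4 and Irf8 in conventional dendritic-like cells. In CD8 T cells 1.49% of all genes were called and in conventional dendritic-like cells 11.5%. None of the members was called in CD4 conventional T cells (0.0384% of all genes), NK-like cells (1.07%), B-like cells (0.0963%), monocyte/macrophage-like cells (17.1%) or neutrophil-like cells (7.62%). In the finer types 6 of 55 tests were called, in macrophage-like cells (3 of 8 members, all higher, where 11.8% of all genes were called, 5.41% higher and 6.39% lower), cDC2-like cells (1 of 8, higher, where 15% were called, 7.72% higher and 7.23% lower) and other T cells (1 higher and 1 lower of 8, where 7.86% were called, 3.93% higher and 3.92% lower), and none in Ly6C monocyte-like (7.16%), patrolling monocyte-like (14.5%), plasma-like (1.39%) or proliferating cells (0.62%). Groups that did not overlap were far more common than calls: 4 of 8 members in CD8 T cells (48.6% of all genes), 4 of 8 in CD4 conventional T cells (41.3%), 4 of 7 in NK-like cells (45.2%), 4 of 8 in B-like cells (44.5%), 7 of 8 in monocyte/macrophage-like cells (63.4%), 3 of 6 in neutrophil-like cells (55.5%) and 6 of 8 in conventional dendritic-like cells (56.6%). In the finer types the same background was 59.3% in macrophage-like, 55.7% in Ly6C monocyte-like, 57% in patrolling monocyte-like, 57.2% in cDC2-like, 51% in other T, 51% in plasma-like and 52.2% in proliferating cells. The CD8 T changes of Irf7 and Irf8 were known from these data when the family was chosen, so they are given as descriptions.

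**Figure D2:**
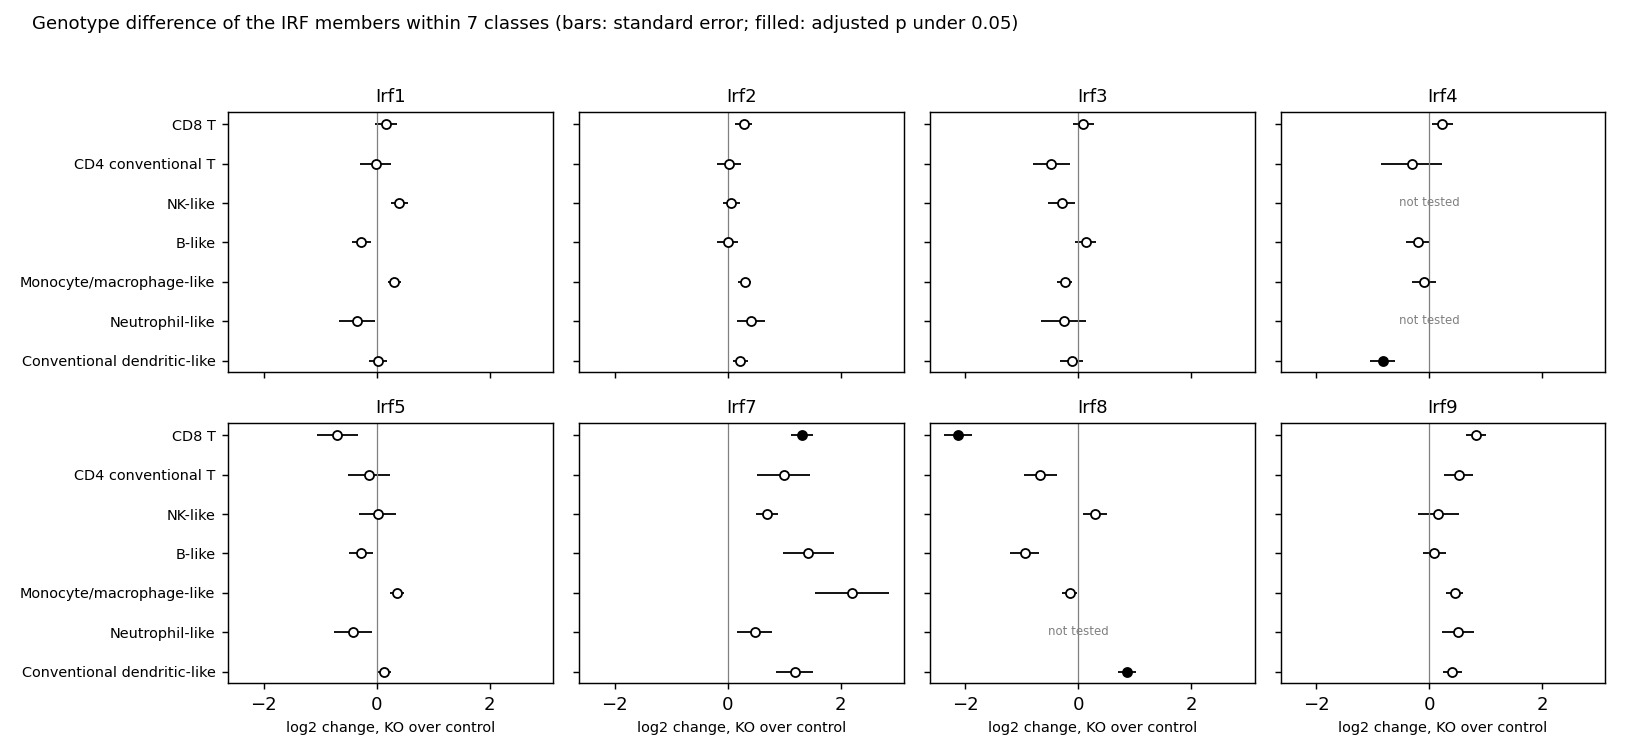
Log2 change of each member, KO over control, in the 7 classes, with a bar of 1 SE from edgeR and a filled point where the adjusted p was under 0.05. Irf7 and Irf9 lie right of 0 in all 7 classes, and Irf8 points left in CD8 T cells (-2.12) and right in conventional dendritic-like cells (0.87).

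Irf7, the interferon-induced amplifier, was the member whose levels stood apart by genotype most often. Both KO mice were above both control mice in 7 of 7 classes and in 14 of 14 classes and types, with log2 changes of 0.48 to 2.52. Separation within any single class is common, as the shares above show, and these counts over classes and types come from the same 4 mice, with finer types nested in the classes, so they are not independent of each other; this holds for every member. In CD8 T cells Irf7 was at 92.4 and 106 CPM in KO mice, against 46.3 and 33.0 CPM in control mice (log2 1.32 ± 0.197 SE), and after thinning (1.15) and within naive-like CD8 T sub-clusters (0.68) the change was no longer called. In other T cells, T-like cells with UMIs of neither or both of the CD4 and CD8 genes, it rose to 83.4 and 91.0 CPM in KO mice, against 51.9 and 32.3 CPM in control mice (log2 1.05 ± 0.191 SE, edgeR adjusted p = 0.00536). In cDC2-like cells it rose to 163 and 244 CPM, against 86.7 and 55.2 CPM (log2 1.51 ± 0.245 SE, edgeR adjusted p = 0.00338). The calls in other T and cDC2-like cells held without any single mouse. Different sub-clusters held most cDC2-like cells in the 2 genotypes: one with Arl5c, Slc25a33 and Gla among its leading genes held 27.6% and 38.0% of conventional dendritic-like cells in KO mice, against 2.15% and 1.70% in control mice, and another with Pgf, Ccl17 and Clec4n held 0.606% and 2.86%, against 38.7% and 44.3%. Their part in the Irf7 change was not tested.

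The Irf7 differences in monocyte and macrophage cells, the widest among them wider than any called one, missed the threshold. Monocyte/macrophage-like cells as a class had 375 and 542 CPM in KO mice, against 145 and 54.1 CPM in control mice (log2 2.21 ± 0.654 SE, edgeR adjusted p = 0.145). Of this class, Ly6C monocyte-like cells were 76 of 903 and 125 of 1145 cells in KO mice, against 3024 of 6274 and 4295 of 6704 in control mice. An unnamed sub-cluster held 32.2% and 35.4% of the class in KO mice, against 1.56% and 0.119% in control mice. The part of this make-up in changes of the class was not tested. Macrophage-like cells had 483 and 633 CPM in KO mice, against 145 and 48.0 CPM in control mice (log2 2.52 ± 0.700 SE, edgeR adjusted p = 0.149). Ly6C monocyte-like cells had 213 and 346 CPM, against 142 and 57.6 CPM (log2 1.51 ± 0.677 SE, edgeR adjusted p = 0.365), and patrolling monocyte-like cells 178 and 352 CPM, against 116 and 56.5 CPM (log2 1.61 ± 0.533 SE, edgeR adjusted p = 0.161). The groups did not overlap in any of these, but the 2 control mice were themselves far apart, control mouse 2 being the lowest of the 4 in 13 of the 14 classes and types. Without control mouse 2 the macrophage-like change was 1.94 and without control mouse 1 it was 3.54, and both passed the test, with the lone control mouse assumed to vary like the other group and with 15.3% and 16.6% of all genes called. Neutrophil-like cells had the smallest change, with 115 and 128 CPM in KO mice and 109 and 64.3 CPM in control mice (log2 0.48 ± 0.304 SE, edgeR adjusted p = 0.365). Different sub-clusters held most neutrophil-like cells in the 2 genotypes: one with Prok2, Ciart and Retn among its leading genes held 66.0% and 50.8% in KO mice, against 2.79% and 0.516% in control mice, and another with Siglecf, Ltc4s and Bambi held 0.190% and 6.56%, against 24.7% and 25.8%. Their part in the Irf7 values was not tested.

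In B-like cells Irf7 was at 51.0 and 82.0 CPM in KO mice, against 37.7 and 11.9 CPM in control mice (log2 1.43 ± 0.453 SE, edgeR adjusted p = 0.374). In NK-like cells it was at 84.1 and 75.4 CPM, against 47.6 and 51.3 CPM (log2 0.70 ± 0.190 SE, edgeR adjusted p = 0.115). Treg-like cells, too few to test, held 136 CPM over 58 KO cells, against 37.4 CPM over 173 control cells. The exact 95% Poisson intervals, which cover counting error only, were 98.8 to 183 and 24.8 to 54.0 CPM. Plasmacytoid dendritic-like cells held 406 CPM over 323 KO cells (379 to 434), against 135 CPM over 47 control cells (89.2 to 197). Of these control cells 45 came from control mouse 2 and 2 from control mouse 1, so the control value is nearly that of a single mouse. Control mouse 2 was also the lowest for Irf7 in 13 of 14 classes and types. Conventional dendritic-like cells as a class had 191 and 215 CPM in KO mice and 121 and 54.7 CPM in control mice (log2 1.19 ± 0.324 SE, edgeR adjusted p = 0.0738). In cDC1-like cells the genotypes overlapped, at 219 and 174 CPM in KO mice and 271 and 57.9 CPM in control mice.

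Irf9, which acts in the response to type I interferon, had log2 changes above 0 in 14 of 14 classes and types, from 0.09 to 0.83, and non-overlapping groups in 10, control mouse 2 being the lowest of the 4 mice in 11. It was called in macrophage-like cells, at 52.9 and 61.5 CPM in KO mice and 40.6 and 34.9 CPM in control mice (log2 0.60 ± 0.148 SE, edgeR adjusted p = 0.0316). Macrophage-like cells lost that call without KO mouse 1 (adjusted p = 0.0862) and without KO mouse 2 (adjusted p = 0.234). In CD8 T cells it was at 50.4 and 61.0 CPM, against 32.9 and 29.8 CPM, and missed the threshold (log2 0.83 ± 0.174 SE, edgeR adjusted p = 0.0656). Without control mouse 1, 5 members were called in CD8 T cells, Irf9 among them, together with Irf1, Irf5, Irf7 and Irf8, but there 13.8% of all genes were called, against 1.49% with all 4 mice.

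**Figure D3:**
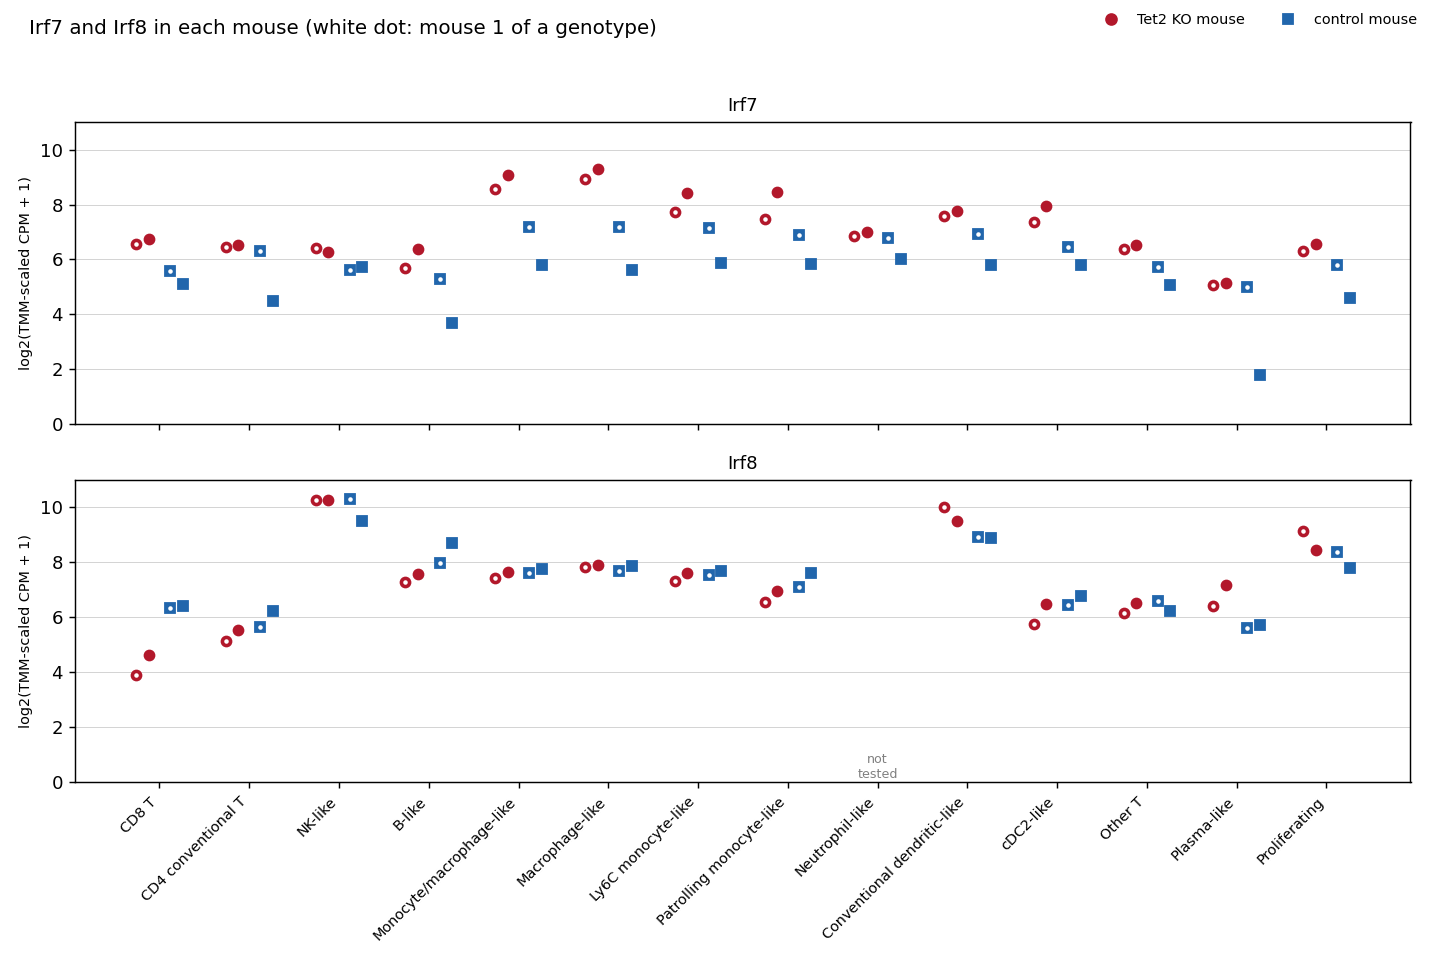
Irf7 (top) and Irf8 (bottom) in each mouse, as log2(TMM-scaled CPM + 1), in 14 classes and types, with Tet2 KO mice as red circles left of control mice as blue squares and a white dot for mouse 1. Irf7 in both KO mice lies above both control mice in all 14. Irf8 is lower in KO CD8 T cells and higher in KO conventional dendritic-like cells as a class, but not in cDC2-like cells.

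Irf8 was lower in KO CD8 T cells and higher in KO conventional dendritic-like cells as a class. It was not higher within cDC1-like or cDC2-like cells. In CD8 T cells it was at 13.9 and 23.9 CPM in KO mice, against 80.8 and 83.1 CPM in control mice (log2 -2.12 ± 0.246 SE). After thinning to 1000 UMIs, 0.983% and 1.29% of KO CD8 T cells had an Irf8 UMI, against 3.27% and 6.67% of control CD8 T cells; unthinned, the shares were 4.44% and 6.96%, against 12.8% and 17.9%, at median depths of 4641 and 4443 UMIs in KO mice and 4306 and 3882 in control mice. In neutrophil-like cells the thinned shares were 0.195% and 0.446% in KO mice and 0.258% and 0.722% in control mice. The shares of CD8 T sub-clusters differed between genotypes and also between the 2 control mice. The largest in control mouse 1 was a naive-like one, with 37.1% of its CD8 T cells. This naive-like sub-cluster held 11.97% in control mouse 2, and 21.7% and 18.4% in KO mice. A sub-cluster with Ccl1, Gzmk and Cdkn2a among its leading genes held 0.376% and 1.72% of CD8 T cells in KO mice, against 12.1% and 54.8% in control mice, and another with Cd8a, Jaml and Ccl5 held 56.2% and 53.4%, against 15.4% and 9.95%. Without the Gzmk sub-cluster, left out after the data were seen, the Irf8 change was -1.03 ± 0.232 SE.

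Markers of other cell types that express Irf8 were measured in the same CD8 T sums. The 6 B cell markers summed to 18.8 and 20.4 CPM in KO mice and 21.4 and 18.8 CPM in control mice, with Ms4a1 at 0 in both control mice. The 7 plasmacytoid dendritic markers summed to 30.3 and 31.7 CPM, against 71.2 and 115 CPM, and Siglech was at 0 in both control mice. The 6 NK markers, several of which activated CD8 T cells share, summed to 741 and 859 CPM, against 886 and 1744 CPM. The 9 conventional dendritic markers, which include Ccr7 of naive T cells, summed to 428 and 442 CPM, against 607 and 226 CPM. Among CD8 T cells with no UMI of 6 myeloid genes the Irf8 change was -2.28 ± 0.233 SE, a choice of cells that does not measure myeloid RNA. The part of RNA from NK-type, plasmacytoid dendritic and myeloid cells in the result was not tested.

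No other T cell group had an Irf8 call. CD4 conventional T cells had 34.0 and 45.9 CPM in KO mice and 48.5 and 73.7 CPM in control mice (log2 -0.67 ± 0.293 SE, edgeR adjusted p = 0.454). Treg-like cells held 1 Irf8 UMI in 58 KO cells, or 3.09 CPM (exact Poisson interval 0.0782 to 17.2), against 68 UMIs in 173 control cells, or 90.8 CPM (70.5 to 115). In other T cells the genotypes overlapped, at 70.5 and 91.8 CPM in KO mice and 96.1 and 74.0 CPM in control mice. B-like cells had 157 and 190 CPM in KO mice, against 252 and 417 CPM in control mice, without overlap but also without a call (log2 -0.95 ± 0.255 SE, edgeR adjusted p = 0.303). A pair of B-like sub-clusters that held 51.4% and 32.6% of the B-like cells of control mouse 2 held 5.67% to 20.9% and 4.67% to 9.54% in the other 3 mice.

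In conventional dendritic-like cells Irf8 rose to 1034 and 720 CPM in KO mice, against 483 and 478 CPM in control mice (log2 0.87 ± 0.162 SE, edgeR adjusted p = 0.0108). Within cDC1-like cells, where Irf8 is highest among conventional types, the genotypes overlapped: 1896 CPM over 235 KO cells (exact Poisson interval 1850 to 1940), against 1968 CPM over 59 control cells (1870 to 2070). Within cDC2-like cells Irf8 was at 52.4 and 88.2 CPM in KO mice, against 86.7 and 109 CPM in control mice (log2 -0.45 ± 0.225 SE, edgeR adjusted p = 0.224). cDC1-like cells were 138 of 330 and 97 of 384 conventional dendritic-like cells in KO mice, against 32 of 186 and 27 of 176 in control mice. Conventional dendritic-like cells lost the call without control mouse 1 (adjusted p = 0.110), without control mouse 2 (adjusted p = 0.127) and with mixed sub-clusters kept in the class (adjusted p = 0.0633).

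Irf4, which cDC2 cells express more than cDC1 cells, fell in the same conventional dendritic-like cells, to 18.8 and 21.2 CPM in KO mice, against 41.0 and 28.9 CPM in control mice (log2 -0.82 ± 0.222 SE, edgeR adjusted p = 0.0426). Within cDC2-like cells it was at 34.0 and 28.3 CPM, against 52.3 and 31.3 CPM, with overlap (log2 -0.46 ± 0.246 SE, edgeR adjusted p = 0.250). Conventional dendritic-like cells lost the call without KO mouse 1 (adjusted p = 0.0791), without control mouse 1 (0.291), by DESeq2's Wald test (0.194), with doublets kept (0.0657) and with mixed sub-clusters kept (0.120). In other T cells Irf4 fell to 17.6 and 16.2 CPM in KO mice, against 31.0 and 28.4 CPM in control mice (Other T: log2 -0.81 ± 0.201 SE, edgeR adjusted p = 0.0234), a call lost without KO mouse 1 (adjusted p = 0.0678), without KO mouse 2 (0.135) and by DESeq2's Wald test (0.235). The 6 NK markers in other T cells summed to 3316 and 2808 CPM in KO mice, against 814 and 1503 CPM in control mice. Irf4 in CD8 T cells overlapped between genotypes, at 35.7 and 30.5 CPM in KO mice and 30.6 and 25.8 CPM in control mice, as it did in B-like cells (136 and 109 CPM, against 164 and 118 CPM) and plasma-like cells (217 and 107 CPM, against 159 and 186 CPM).

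Irf5, the factor downstream of MyD88, rose in macrophage-like cells to 301 and 331 CPM in KO mice, against 246 and 215 CPM in control mice (log2 0.46 ± 0.128 SE, edgeR adjusted p = 0.0497). Macrophage-like cells, whose adjusted p was close to the threshold, lost the call without KO mouse 1 (0.154), KO mouse 2 (0.292) or control mouse 2 (0.108), and with DESeq2's size factors (0.0522). Ly6C monocyte-like cells had 340 and 410 CPM, against 323 and 272 CPM, without overlap (log2 0.34 ± 0.154 SE, edgeR adjusted p = 0.215). In conventional dendritic-like cells Irf5 was at 392 and 405 CPM, against 385 and 342 CPM (log2 0.13 ± 0.116 SE, edgeR adjusted p = 0.523).

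Irf1, the interferon gamma-induced activator, also rose in macrophage-like cells, to 224 and 197 CPM in KO mice, against 129 and 143 CPM in control mice (log2 0.63 ± 0.128 SE, edgeR adjusted p = 0.0148). Macrophage-like cells lost that call without KO mouse 1 (adjusted p = 0.136) and without KO mouse 2 (adjusted p = 0.0723). Macrophage-like cells of the 2 genotypes were spread differently over sub-clusters: a macrophage-like sub-cluster with Slc40a1, Ifit3 and Ifit2 among its leading genes held 34.3% and 33.4% of monocyte/macrophage-like cells in KO mice, against 12.1% and 2.31% in control mice. In patrolling monocyte-like cells Irf1 was at 204 and 239 CPM, against 276 and 284 CPM (log2 -0.34 ± 0.172 SE, edgeR adjusted p = 0.215), and in NK-like cells at 313 and 354 CPM, against 261 and 242 CPM (log2 0.40 ± 0.145 SE, edgeR adjusted p = 0.254). Plasmacytoid dendritic-like cells, too few to test, held 419 CPM of Irf1 over 323 KO cells (exact Poisson interval 392 to 447). The value was 120 CPM over 47 control cells (77.1 to 179), of which 45 came from control mouse 2. Over the 14 classes and types tested, the log2 changes of Irf1 lay above 0 in 9 and below in 5.

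Irf2, the competitor of IRF1, had log2 changes above 0 in 13 of 14 classes and types, none called. The widest was in patrolling monocyte-like cells, at 186 and 195 CPM in KO mice and 134 and 130 CPM in control mice (log2 0.53 ± 0.177 SE, edgeR adjusted p = 0.0593). Monocyte/macrophage-like cells had 144 and 150 CPM, against 115 and 123 CPM (log2 0.31 ± 0.112 SE, edgeR adjusted p = 0.0950). In B-like cells, where it is highest, it was at 239 and 243 CPM, against 269 and 212 CPM. Irf3, the constitutive sensor-activated factor, was called in none of the 14, with log2 changes from -0.48 to 0.23 and no shared sign, 6 above 0 and 8 below.

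Whether the genotype effect differed between classes was tested in a single edgeR fit over the 7 classes with mouse as a block. It differed for Irf7 (adjusted p = 0.0182) and Irf8 (adjusted p = 0.00135), 2 of the 8 members, where 12.3% of all genes were called. Both tests include the CD8 T changes known when the family was chosen, so they are no independent support for them. The Irf8 effect in CD8 T cells minus that in monocyte/macrophage-like cells was -1.95 ± 0.398 SE, given for the same reason as a description with no test (2.74% of all genes passed in that contrast). The Irf7 effect was lower in neutrophil-like cells than in monocyte/macrophage-like cells (difference -1.95 ± 0.358 SE, edgeR adjusted p = 0.00171, with 8.6% of all genes called). The same contrast for Irf7 in NK-like cells was -1.51 ± 0.391 SE and missed the threshold (edgeR adjusted p = 0.0595, with 1.49% of all genes called). The Irf8 effect in conventional dendritic-like cells was 1.09 ± 0.367 SE above that in monocyte/macrophage-like cells, with an adjusted p of 0.222 in edgeR and 1.08% of all genes called. No member's contrast was called for CD4 conventional T cells (1.25% of all genes) or B-like cells (2.49%). Since all of these contrasts share the monocyte/macrophage-like sums, they are not independent of each other.

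CD8 T cells were then split within each mouse by a UMI of Pdcd1, which encodes the inhibitory receptor PD-1, and by clone size, as IRF4, IRF8 and IRF1 are known to take part in T cell activation. Cells with a Pdcd1 UMI numbered 410 and 447 in KO mice and 137 and 267 in control mice. In edgeR fits with mouse as a block, 3 of 8 members were called between Pdcd1-positive and Pdcd1-negative cells, where 14.1% of all genes were called. Irf1 was lower in the Pdcd1-positive cells of 4 of 4 mice, at 160 and 163 CPM in KO mice and 133 and 88.7 CPM in control mice, against 220 and 221 CPM (KO) and 252 and 203 CPM (control) in Pdcd1-negative cells (log2 -0.72 ± 0.127 SE, edgeR adjusted p = 0.00149). Irf4 was higher in the Pdcd1-positive cells of 4 of 4 mice, at 50.1 and 38.4 CPM (KO) and 38.7 and 37.5 CPM (control), against 31.0 and 27.4 CPM (KO) and 28.0 and 12.6 CPM (control) in Pdcd1-negative cells (log2 0.71 ± 0.167 SE, edgeR adjusted p = 0.00964). Irf5, at low levels, was also higher in 4 of 4 mice (log2 0.87 ± 0.215 SE, edgeR adjusted p = 0.0137). Without naive-like sub-clusters, an alternative added after the data were seen, only Irf1 stayed called (log2 -0.58), and Irf4 was at 0.37 and Irf5 at 0.47. After thinning, Irf1 alone was called as well (log2 -0.87), with Irf4 at 0.74. The Irf5 call was also lost without control mouse 2 (0.72).

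The Pdcd1 difference of Irf8 was smaller in KO mice than in control mice. Pdcd1-positive cells held 20.1 and 24.2 CPM in KO mice, against 185 and 124 CPM in control mice. Pdcd1-negative cells held 11.8 and 25.05 CPM in KO mice, against 33.8 and 37.0 CPM in control mice. The within-mouse log2 difference was lower in KO by 1.84 (interaction -1.84 ± 0.295 SE), in a contrast where 3.64% of all genes were called. The Irf8 interaction was -3.53 after thinning and -1.66 without naive-like sub-clusters. The cells are those in which the lower Irf8 of KO mice was already known. These values are therefore a description and no independent support for it. Irf1 had an interaction of the other sign, 0.61 ± 0.151 SE (edgeR adjusted p = 0.0188), with the drop in Pdcd1-positive cells smaller in KO mice. That call was lost after thinning (0.66) and without naive-like sub-clusters (0.48).

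A clone was a set of cells of 1 mouse with the same productive beta chain (V gene, J gene and CDR3 in nucleotides), and cells of clones with at least 2 cells were compared with cells whose clone had 1 cell. Cells of these expanded clones numbered 719 and 594 in KO mice and 91 and 317 in control mice, and cells of single-cell clones 471 and 438 in KO mice and 417 and 238 in control mice. The same 3 members were called as in the Pdcd1 split, where 21.6% of all genes were called. Irf4 was higher in expanded clones in 4 of 4 mice, at 48.8 and 42.3 CPM (KO) and 40.2 and 30.9 CPM (control), against 23.0 and 17.4 CPM (KO) and 20.8 and 16.3 CPM (control) in single-cell clones (log2 1.09 ± 0.156 SE, edgeR adjusted p = 4.7e-05). Irf1 was lower in expanded clones in 4 of 4 mice (log2 -0.76 ± 0.121 SE, edgeR adjusted p = 0.000142). Irf5 was higher in 3 of 4 mice (log2 1.08 ± 0.277 SE, edgeR adjusted p = 0.00905), control mouse 1 being the exception, and the call was lost without KO mouse 1 (0.86) and without KO mouse 2 (0.94). Irf8 was at 17.2 and 23.9 CPM in expanded clones of KO mice and 220 and 106 CPM in those of control mice, against 9.82 and 24.7 CPM (KO) and 47.1 and 54.0 CPM (control) in single-cell clones, a split called neither over all mice nor without KO mouse 1 or control mouse 2, but called without KO mouse 2 (1.43) or control mouse 1 (0.59). Its interaction with genotype was not called (-1.37 ± 0.504 SE, edgeR adjusted p = 0.367). No member's interaction was called, where 1.31% of all genes were. The largest clone of control mouse 2 held 171 cells; without the largest clone of each mouse, chosen after the data were seen, the Irf8 interaction was -1.50 and was called. The Pdcd1 and clone splits share cells and are not independent.

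**Figure D4:**
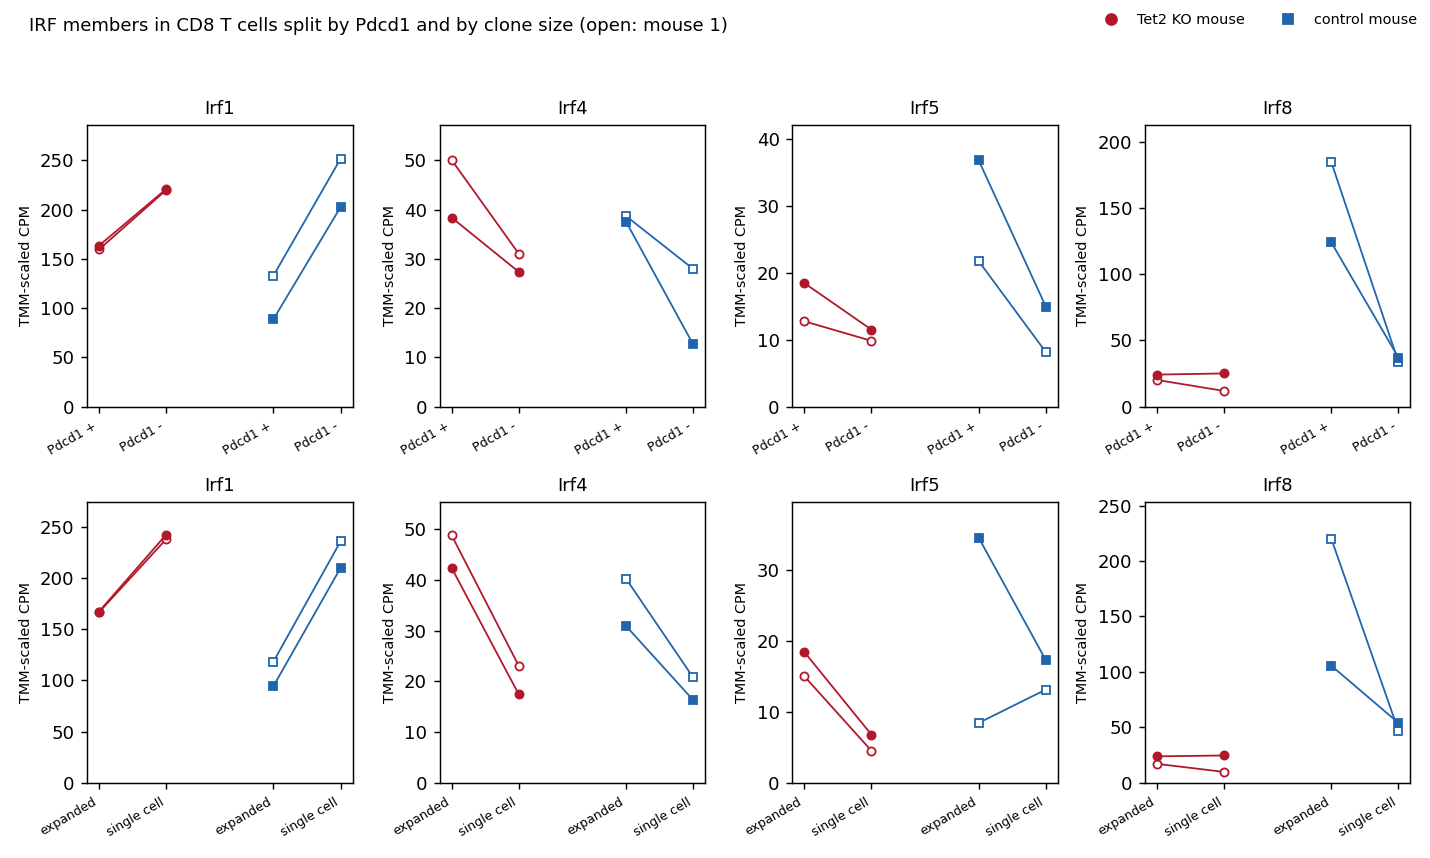
Irf1, Irf4, Irf5 and Irf8 in CD8 T cells as TMM-scaled CPM, in cells with and without a Pdcd1 UMI (top) and in expanded and single-cell clones (bottom), each line joining the values of 1 mouse, with KO mice in red left of control mice in blue and open symbols for mouse 1. Irf4 falls and Irf1 climbs along every line, while Irf8 is at 124 to 185 CPM in the Pdcd1-positive cells of control mice and at 20.1 to 24.2 CPM in those of KO mice.

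Over all cells of a library, the genotype difference of several members moved with the mix of classes. The CPM over all cells was compared with a mean of class levels weighted by the same class mix in every mouse. Irf4 was at 59.0 and 47.9 CPM over all KO cells, against 13.8 and 10.4 CPM over all control cells (log2 2.14), but at the common mix it was at 38.4 and 31.4 CPM in KO mice, against 38.8 and 29.9 CPM in control mice (log2 0.02). Irf5 was at 140 and 147 CPM over all KO cells, against 234 and 206 CPM over all control cells (log2 -0.61), whereas at the common mix it was at 207 and 211 CPM, against 186 and 175 CPM (log2 0.21), so its sign depends on the weighting. Irf8 had a log2 difference of 0.49 over all cells and 0.03 at the common mix. Irf7 went the other way, with 143 and 193 CPM over all KO cells, against 124 and 47.3 CPM over all control cells (log2 0.97), and 222 and 298 CPM, against 102 and 41.7 CPM, at the common mix (log2 1.86). For Irf1, Irf2, Irf3 and Irf9 the log2 differences were 0.06, 0.48, 0.35 and 0.30 over all cells and 0.18, 0.21, -0.04 and 0.44 at the common mix. An exact two-sided permutation test of 2 mice against 2 cannot go below p = 0.33, so these 8 comparisons are given as values with no test. In sums over all cells, fewer cells of a type and less RNA per cell cannot be told apart.

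**Figure D5:**
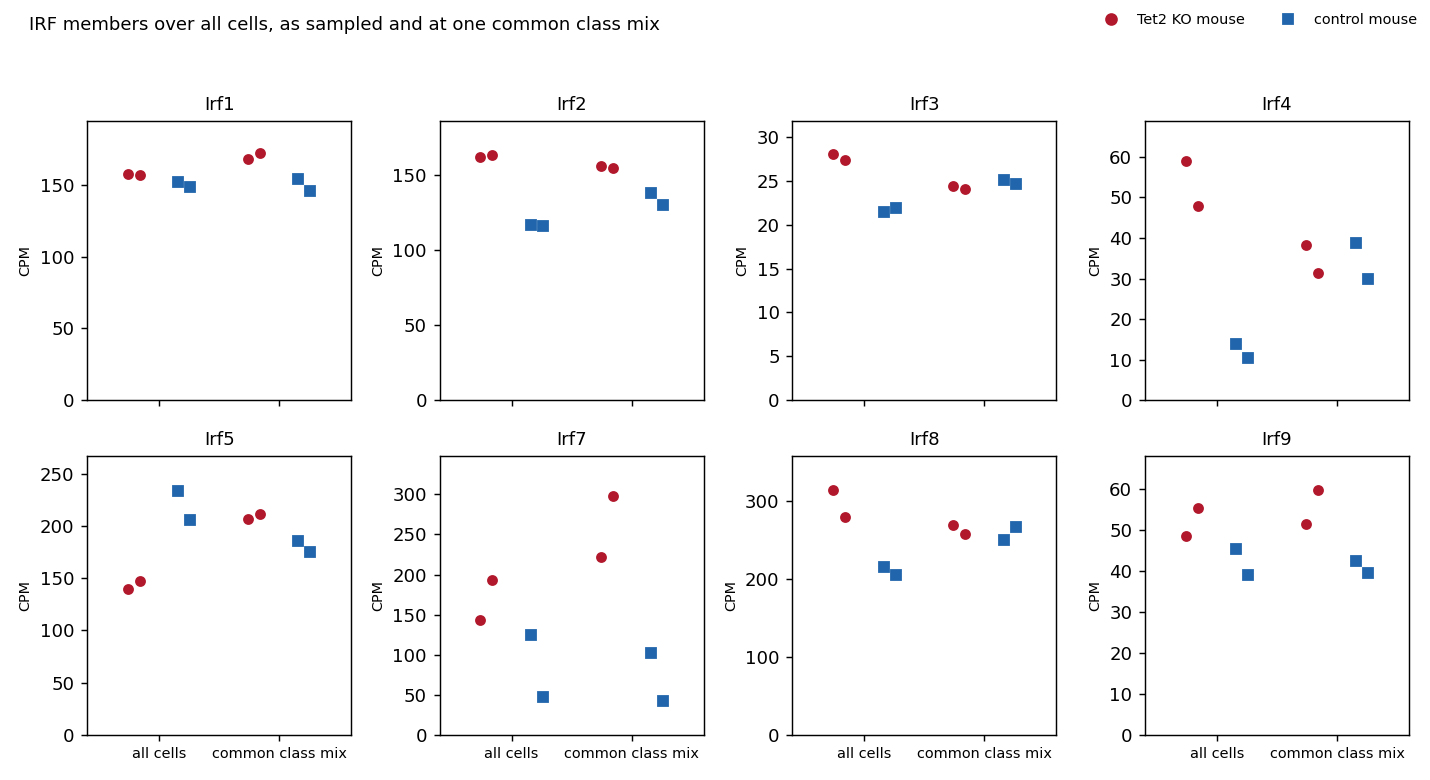
CPM of each member over all cells (left in each panel) and at the common class mix (right), with KO mice as red circles left of control mice as blue squares. The Irf4 groups are far apart over all cells and overlap at the common mix, the Irf5 groups change places, and the Irf7 groups move further apart.

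Genes around the IRFs were read from 7 lists, chosen with earlier results of these data known. The changes are those of whole classes. The make-up of several classes differed between genotypes, as given above, and its part in these changes was not tested. A list of 24 interferon-stimulated genes was the list with the most calls in CD8 T cells, where their rise was known beforehand: 4 of the 22 tested rose and none fell (0.627% and 0.865% of all genes), with a median log2 change of 1.28 against -0.01 for all genes tested. They were Ifit3 (43.0 and 40.2 CPM in KO mice, against 11.5 and 5.81 CPM in control mice), Ifit1, Rsad2 (viperin) and Mx1, all antiviral effectors. In conventional dendritic-like cells 8 of 23 rose and none fell (5.85% and 5.62% of all genes), with a median of 0.82 against 0.03, and Phf11b was at 264 and 256 CPM in KO mice, against 141 and 86.8 CPM in control mice. In monocyte/macrophage-like cells 3 of 24 rose and none fell (7.9% and 9.18% of all genes; median 1.42 against 0.01), and these were Mx2, Isg20 and Ifit2. In NK-like cells 1 of 11 rose, Isg15, a ubiquitin-like protein (92.4 and 130 CPM in KO mice, against 34.5 and 21.8 CPM in control mice), where 0.576% of all genes rose and 0.489% fell. In neutrophil-like cells 1 of 20 rose, Oas3, a sensor of double-stranded RNA (96.5 and 96.1 CPM in KO mice, against 48.4 and 31.2 CPM in control mice), where 4.45% of all genes rose and 3.18% fell. No gene of the list was called in B-like cells (21 tested, median 0.94) or CD4 conventional T cells (15 tested, median 0.68). Of the 24 promoter windows of this list 13 held the ISRE core.

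Targets of IRF1 gave fewer calls and no direction shared by all classes. In conventional dendritic-like cells Il15, a cytokine that sustains NK and memory T cells, rose to 27.1 and 24.9 CPM in KO mice, against 8.11 and 6.29 CPM in control mice. There the guanylate-binding protein genes Gbp3 and Gbp5 and the immunoproteasome gene Psmb10 fell, so that 1 of 19 rose and 3 fell, where 5.85% of all genes rose and 5.62% fell. In monocyte/macrophage-like cells Il15 rose to 36.9 and 40.0 CPM, against 18.1 and 12.7 CPM, and Cd274, the PD-L1 gene, fell to 107 and 102 CPM, against 128 and 152 CPM. In neutrophil-like cells 2 of 18 fell and 0 rose, where 3.18% of all genes fell and 4.45% rose. The median log2 change there was -0.67, against -0.085 for all genes tested. Of these targets the chemokine gene Cxcl9 fell, with 0.743 CPM in KO mouse 1 and none in KO mouse 2, against 39.2 and 19.9 CPM in control mice. None of the 16 tested in CD8 T cells was called.

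Sensors, adaptors and kinases upstream of IRF3, IRF5 and IRF7 split by direction. In monocyte/macrophage-like cells 4 of 22 rose and 4 fell, where 7.9% of all genes rose and 9.18% fell. The endosomal receptor genes Tlr7 (53.1 and 48.8 CPM in KO mice, against 20.4 and 16.7 CPM in control mice) and Tlr9 rose with Slc15a4, an endolysosomal transporter gene. The surface receptor gene Tlr4 fell to 14.9 and 15.4 CPM, against 42.5 and 53.4 CPM. In neutrophil-like cells 1 of 14 rose and 2 fell, where 4.45% of all genes rose and 3.18% fell: Slc15a4 rose to 37.1 and 32.0 CPM, against 8.62 and 12.3 CPM, and Tlr4 and Traf6 fell. In conventional dendritic-like cells Tlr3, which cDC1 cells express, and Unc93b1, the chaperone of endosomal receptors, rose, and Myd88 and Sting1 fell, 2 each way of 21 tested, where 5.85% of all genes rose and 5.62% fell.

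Among interferon receptors and their kinases, Jak2 fell in conventional dendritic-like cells (73.0 and 71.7 CPM in KO mice, against 139 and 126 CPM in control mice) and in monocyte/macrophage-like cells. Ifngr1, the interferon gamma receptor chain, rose in conventional dendritic-like cells to 472 and 402 CPM, against 283 and 292 CPM. There 1 of 9 rose and 1 fell, where 5.85% of all genes rose and 5.62% fell. In monocyte/macrophage-like cells 1 of 9 also rose and 1 fell, where 7.9% of all genes rose and 9.18% fell.

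Of the partner factors of IRF4 and IRF8, Batf3, which cDC1 cells need, rose in conventional dendritic-like cells to 151 and 146 CPM in KO mice, against 89.7 and 84.3 CPM in control mice, and Tcf4, which plasmacytoid dendritic cells need, fell. Batf rose in neutrophil-like cells to 147 and 134 CPM, against 53.1 and 25.1 CPM. Of this list, 2 of 14 tested rose and 1 fell in conventional dendritic-like cells (5.85% and 5.62% of all genes). In monocyte/macrophage-like cells 2 of 13 rose and 0 fell (7.9% and 9.18%), and in neutrophil-like cells 1 of 11 rose and 0 fell (4.45% and 3.18%). Ikzf3, Ebf1 and Pax5, factors of B cells, rose in monocyte/macrophage-like cells, Ikzf3 and Ebf1 also in conventional dendritic-like cells and Ebf1 in neutrophil-like cells. The 6 B cell markers moved with them: their sum was 29.3 and 25.3 CPM in KO mice and 9.0 and 6.96 CPM in control mice in monocyte/macrophage-like cells, and 79.2 and 89.0 CPM against 11.4 and 16.7 CPM in conventional dendritic-like cells. In neutrophil-like cells it was 12.7 and 9.30 CPM, against 1.83 and 2.76 CPM. The part of B cell RNA in these rises was not tested. Xbp1, a secretory regulator, fell in all 3 of these classes. Ebf1, Pax5 and Xbp1 come from a list for the IRF4 and IRF8 programme in lymphocytes. Of that list 3 of 12 rose and 1 fell in monocyte/macrophage-like cells. In conventional dendritic-like cells 1 of 10 rose and 1 fell, and in neutrophil-like cells 1 of 7 rose and 1 fell. The shares of all genes are those just given. Among negative regulators, Socs3 fell in neutrophil-like cells to 131 and 145 CPM, against 429 and 406 CPM, and in monocyte/macrophage-like cells, and the IRF2 corepressor gene Irf2bp2 fell in monocyte/macrophage-like and conventional dendritic-like cells. Its relative Irf2bpl rose in CD8 T cells to 107 and 103 CPM, against 55.5 and 53.7 CPM. Of the negative regulators 0 of 14 rose and 2 fell in monocyte/macrophage-like cells, and 0 of 11 rose and 1 fell in neutrophil-like cells. In conventional dendritic-like cells 1 of 14 rose and 1 fell. In CD8 T cells 1 of 14 rose and 0 fell, where 0.627% of all genes rose and 0.865% fell.

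Genes most like each member were ranked by Pearson correlation of log2(CPM + 1) over 28 sums (7 classes in 4 mice) among 5643 genes with a mean of at least 20 CPM. These are descriptions over sums that share libraries and class structure. Irf7 was closest to Oas1a (r = 0.91), Trim30a (0.88) and Rnf213 (0.83), and Irf9 to Ifi27l2a (0.80), Slc66a2 (0.76) and Slfn5 (0.75). Irf4 was closest to Ccr7 (0.96), Gpr183 (0.92) and Btla (0.92), and Irf5 to BC028528 (0.97), Rassf4 (0.96) and Zfp385a (0.95). Irf8 followed Lat2 (0.94), Stt3a (0.88) and Pals2 (0.88). Irf1 followed Bin2 (0.86), Il12rb2 (0.82) and Spn (0.82), Irf2 followed Igkv6-23 (0.91), Lmbrd1 (0.90) and Igkv8-27 (0.90), and Irf3 followed Dhx9 (0.93), Traf2 (0.90) and Nudcd3 (0.90). Among the members themselves the highest correlations over these sums were between Irf3 and Irf4 (0.66) and between Irf7 and Irf9 (0.54), and the lowest between Irf3 and Irf7 (-0.57).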

How the data were processed

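The data are 8 libraries of 4 mice, 4 of gene expression and 4 of T cell receptors. Cell Ranger 8.0.1, Seurat 5.0.1, R 4.4.1 and GRCm39 are named, with no order, per the submitters' processing notes. The deposited matrices hold raw UMI counts per gene and cell barcode, and the deposited contig tables hold counts of UMIs and reads per receptor contig. The annotation release is not given in the sources used here.

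Kept barcodes had 200 or more genes and no more than 10% of UMIs from mitochondrial genes; Scrublet (scanpy 1.11.5) removed 222 and 516 doublets in KO mice and 409 and 493 in control mice. Cells were clustered (2000 variable genes without the IRF members, 30 components, 20 neighbours, Leiden resolution 1), sub-clustered (20 components, resolution 0.8) and named from fixed markers (at least 3 markers with a fold of 2); names are rebuilt here, and sub-clusters with markers of another class or few UMIs were left out. CD8 T cells had a UMI of Cd8a or Cd8b1 and none of Cd4. UMIs were summed per mouse and type (at least 30 cells a mouse) and tested by edgeR 4.0.16 (quasi-likelihood, robust, filterByExpr, TMM, threshold 0.05). Alternatives were normalization, filter, DESeq2 1.42.0, replicate block, doublets, cell filters, resolution, thinning and leaving out each mouse. On simulated CD8 T sums over 10526 genes, 200 of them changed, 48% of 2-fold and 96% of 4-fold changes were recovered, and 27 of 171 calls were false. Recovery was 6% and 56% for neutrophil-like sums (7874 genes), 26% and 80% for CD4 conventional T sums (7814 genes), and 45% to 70% and 77% to 91% in the other 4 classes. Intervals are exact at 95% and cover counting error only.

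Members and lists were chosen with earlier results of these data known. Genes named beside the members were the called list genes with the smallest p, at most 4 per list and class, and the 3 genes most like each member. The mature dendritic-like cells (30 in all) and unnamed cells were not tested. Some list genes are not reported here.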

Additional observations from a re-analysis of the deposited data

Results flagged for a closer look

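A test of the difference itself, in edgeR fits with mouse as a block, picked out 6 results. The genotype effect differed among the 7 classes for Irf7 (adjusted p = 0.0182) and for Irf8 (adjusted p = 0.00135). The Irf8 effect in CD8 T cells minus that in monocyte/macrophage-like cells was -1.95. These 3 include the CD8 T changes known when the family was chosen and are no independent support for them. The Irf7 effect in neutrophil-like cells differed from that in monocyte/macrophage-like cells by -1.95 (adjusted p = 0.00171). Between Pdcd1-positive and Pdcd1-negative CD8 T cells, the within-mouse log2 difference of Irf1 was 0.607 higher in KO than in control mice (adjusted p = 0.0188), and that of Irf8 was 1.84 lower (-1.84). This Irf8 result uses the CD8 T cells in which lower Irf8 in KO mice was already known, so it is no independent support for that either. No group had the 4 mice needed to test for a mouse far from the others.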

How the results depend on the processing

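Of the log2 changes of members recomputed under another setting, 1421 counted as the same, 67 newly passed, 30 no longer passed and 8 changed sign. The same means an unchanged direction and side of the threshold. An uncalled change within its SE of 0 that stayed uncalled also counted as the same, with no check of its sign. The number of members called, with the value in the main fit given after it, was 0 (2) in CD8 T cells within naive-like sub-clusters and 1 (2) after thinning to 1000 UMIs. Without a filter on low counts it was 1 (0) in CD4 conventional T, NK-like, monocyte/macrophage-like and plasma-like cells, 2 (0) in patrolling monocyte-like cells and 3 (0) in proliferating cells. By DESeq2's Wald test it was 1 (0) in monocyte/macrophage-like and Ly6C monocyte-like cells and 1 (2) in conventional dendritic-like and other T cells. With library totals only it was 4 (0) in monocyte/macrophage-like and 1 (0) in plasma-like cells. It was 1 (0) in NK-like cells at resolution 0.5, 1 (0) in monocyte/macrophage-like cells at resolution 2, and 1 (2) in conventional dendritic-like cells with doublets kept. With mixed sub-clusters kept it was 1 (0) in NK-like and monocyte/macrophage-like cells and 0 (2) in conventional dendritic-like cells. In the Pdcd1 split it was 1 (3), and for its interaction 1 (2), both after thinning and without naive-like sub-clusters, and for the clone interaction 1 (0) without the largest clones. The cause of these moves was not tested.

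Leaving out each mouse in turn gave 2 to 5 called members in CD8 T cells, 0 to 1 in CD4 conventional T, NK-like and neutrophil-like cells, 0 to 2 in B-like, Ly6C monocyte-like and proliferating cells, 0 to 3 in patrolling monocyte-like cells, 0 to 4 in monocyte/macrophage-like and macrophage-like cells, 1 to 2 in conventional dendritic-like and cDC2-like cells and 1 to 3 in other T cells. The share of all genes called swung as well, over 0.739% to 13.8% in CD8 T, 0.0685% to 5.48% in CD4 conventional T, 0.668% to 7.26% in NK-like, 1.09% to 19.1% in neutrophil-like, 0.568% to 11.6% in B-like, 2.94% to 11.3% in Ly6C monocyte-like, 0% to 25.2% in proliferating, 3.81% to 19.6% in patrolling monocyte-like, 3.05% to 26% in monocyte/macrophage-like, 3.23% to 16.6% in macrophage-like, 3.44% to 15.3% in conventional dendritic-like, 10.4% to 12.9% in cDC2-like and 4.91% to 11.4% in other T cells, so these counts are no result about the members alone. Leaving out a mouse moved Irf8 in NK-like cells from -0.047 (without control mouse 2) to 0.76 (without control mouse 1) and Irf5 in B-like cells from -0.53 (without control mouse 1) to 0.046 (without control mouse 2). The other changes of sign that were counted included 4 in lymphocytes. These were Irf2 in CD8 T cells within naive-like sub-clusters (-0.049), Irf5 in CD8 T cells without the sub-cluster largest in control mouse 2 (0.17), and Irf3 (0.010) and Irf8 (-0.87) in NK-like cells at resolution 0.5. The rest, with mixed sub-clusters kept, were Irf4 in monocyte/macrophage-like cells (1.09) and Irf5 in neutrophil-like cells (0.075).

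With the class mix of the control mice and of the KO mice in place of the common mix, the log2 of KO over control was 0.27 and 0.084 for Irf1, 0.33 and 0.11 for Irf2, -0.073 and -0.0092 for Irf3, 0.33 and 0.020 for Irf5 and 0.14 and -0.047 for Irf8. For Irf4 it was 0.40 with the control mix and -0.076 with the KO mix, so its sign depended on the mix. For Irf7 it was 2.05 and 1.52, and for Irf9 0.50 and 0.38.

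With the replicate number as a block, 1 member was called in NK-like cells (Irf7, 0.71), 3 in patrolling monocyte-like cells (0 without the block in both) and 3 in CD8 T cells (2 without it, Irf9 added), and the Irf5 call in macrophage-like cells was lost. With the block, 5.4% of all genes were called in NK-like, 19.5% in patrolling monocyte-like and 3.24% in CD8 T cells. Without it these shares were 1.07%, 14.5% and 1.49%. Same-numbered mice deviated together with correlations of -0.09 to 0.15 over the 7 classes, from 2 pairs. So few pairs cannot show whether same-numbered mice belong together, and the main fits did not pair them.

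Depth, the 2 mice a group and the rebuilt cell types limit these results. Naive-like CD8 T cells had too few Irf8 counts to be tested, and Irf5 was not tested in the thinned Pdcd1 split.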
